A study of Mus musculus with 160 samples.

Results

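Hematopoietic cells (HCs) and endothelial cells (ECs) that lacked Gata3-GFP were compared in the aorta-gonad-mesonephros (AGM) region of mouse embryos at E10.5 (embryonic day). The comparison rests on 40 of the 160 sequenced pools, 20 pools of each population, each made of 20 sorted cells. All embryos were heterozygous for a Gata3-GFP knock-in, a reporter in which GFP fluorescence follows the activity of the Gata3 gene, and the labels name no treatment. HCs were taken as GFP- cells that stained for CD41 or CD45, and ECs as GFP- cells with VE-cadherin (the product of Cdh5) and without CD41 or CD45. The HC gate set no condition on VE-cadherin, it joins both hematopoietic antigens, and the series description writes it as both CD41 and CD45, so blood cells of several lineages and ages can fall into it. Pools were kept when they had over 500000 counts on genes and ERCC spike-in RNAs, over 20% of reads on genes, and under 20% of counts each from ERCC RNAs and from mitochondrial genes, and all 40 pools passed. Cells came from 3 to 5 biological replicates that are not tied to the pools, so the spread between pools may be partly technical. SEs, SDs and p-values below treat pools as separate samples and so do not measure the variation between biological replicates.

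The AGM surrounds the dorsal aorta, and at midgestation it is the site where hematopoietic stem cells arise from a specialised endothelium in the aortic wall. ECs line vessels and are held together by VE-cadherin and claudin junctions, respond to VEGF and angiopoietin ligands and lay down a basement membrane. CD45 marks most blood cells, whereas CD41 marks the earliest blood progenitors as well as megakaryocytes, and at this stage macrophages derived from the yolk sac are already spread through the tissues of the embryo.

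Counts on genes were between 1822577 and 5732291 per EC pool (median 2801408.5) and between 2010549 and 15700184 per HC pool (median 3712266.5). Each level below is the range over pools with its median, in CPM, that is counts scaled to a common library total with TMM normalization over the 40 pools. Where GFP+ pools are set beside them, all levels are from the joint fit of 4 populations, whose scaling differs slightly. Since a pool holds 20 cells, fewer cells of a type and less RNA per cell cannot be told apart. One HC pool stood apart, with 4.62% of its reads ambiguous between genes where the other HC pools had 13.7% to 17.5%, and 3 HC pools, this one included, had 8205462 counts or more where the other 17 had at most 5791192. Counts on genes per ERCC count, on a log2 scale, were 6.80 ± 0.32 (SD, n = 20) in HC pools and 6.66 ± 0.41 (n = 20) in EC pools. The difference of the means was 0.14 (p = 0.235, permutation of pool labels, two-sided, 100000 resamples). Without the 4 deepest pools, all of them HC pools, it was 0.24 (p = 0.0519, same permutation test, 16 HC and 20 EC pools). Gata3 itself was low in both populations, at 1.73 to 12.7 CPM (median 6.95) in HC pools and 4.25 to 29.7 CPM (median 10.4) in EC pools. It was higher in ECs, with an HC minus EC log2 fold change of -0.84 (SE 0.24, adjusted p = 0.00317, edgeR) and overlapping ranges.

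The 4 marker genes separated the populations with no overlap. Cdh5 (ENSMUSG00000031871, chromosome 8 from 104101625 to 104144511, GRCm38) was at 265 to 711 CPM (median 421) in EC pools and 1.25 to 9.71 CPM (median 3.998) in HC pools. Emcn (ENSMUSG00000054690, chromosome 3 from 137341067 to 137432185), which encodes the endothelial sialomucin endomucin, was at 965 to 1698 CPM (median 1281) in EC pools against 0.762 to 21.4 CPM (median 5.85) in HC pools. The lowest EC pool therefore stood far above the highest HC pool for both endothelial markers. Ptprc (ENSMUSG00000026395, chromosome 1 from 138062861 to 138175708), the gene of CD45, was at 287 to 639.5 CPM (median 424) in HC pools and 1.12 to 9.05 CPM (median 4.17) in EC pools. Csf1r, which encodes the receptor that macrophages need for survival, was at 510.0 to 1037 CPM (median 748) in HC pools and 2.62 to 9.89 CPM (median 5.76) in EC pools. Every HC pool thus carried Csf1r as well as Ptprc. Cdh5 and Ptprc encode VE-cadherin and CD45, antigens of the sort itself, so the gates favored their separation, whereas Emcn and Csf1r were not sorted for. On the log2 scale HCs differed from ECs by -6.70 (SE 0.20) for Cdh5, -7.59 (SE 0.22) for Emcn, 6.57 (SE 0.17) for Ptprc and 6.98 (SE 0.14) for Csf1r, and the adjusted p was 4.02e-30, 1.41e-30, 8.82e-33 and 7.82e-36 in the same order (edgeR quasi-likelihood, Benjamini-Hochberg over all genes tested). Itga2b, the gene of CD41, was not of this kind. It was at 0.592 to 134 CPM (median 8.35) in HC pools and 0 to 7.65 CPM (median 4.38) in EC pools, and 12 of the 20 HC pools lay above every EC pool.

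**Figure D1:**
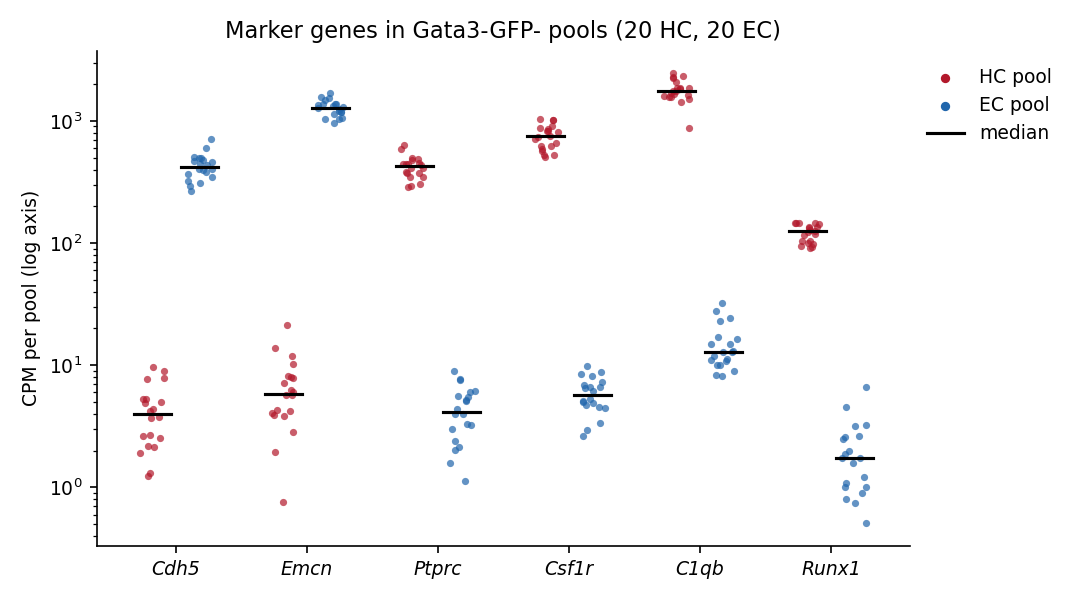
CPM per pool on a log axis for Cdh5, Emcn, Ptprc, Csf1r, C1qb and Runx1, with 20 HC pools (red), 20 EC pools (blue) and the median of each (black line). HC and EC pools do not overlap for any of the 6 genes, and Csf1r stays between 510.0 and 1037 CPM over all HC pools.

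Genes were tested where 5 or more pools had 10 or more counts, and a difference was called where the adjusted p of edgeR was below 0.01 and the fold change past 0.1 on the log2 scale. Of 15502 genes tested, 43.5% were called, 3460 of them higher in HCs and 3277 higher in ECs. These are 22.3% and 21.1% of the genes tested, and the counts of list members given further on are to be read against these shares. For 703 genes (4.53%) every HC pool lay above every EC pool, and for 669 genes (4.32%) every EC pool lay above every HC pool. The difference exceeded 4-fold in 1363 of the genes higher in HCs (8.79% of those tested) and in 1448 of those higher in ECs (9.34%). Among 12188 protein-coding genes tested, 48.96% were called, and among 239 lincRNAs tested, 35.98% were called. The median log2 fold change over all genes was 0.03. Of the genes named here, 16 share over 10% of their exon bases with another gene, most on the opposite strand (Ccnd1, Cdk4, Cdkn1c, Csf1r, Ctsa, Ctsb, Ctsd, Ctsl, Igf2, Lef1, Mpo, Ramp2, Rb1, Rbl2, Sox17 and Tmem255a). The strand setting of the counting is not given in the sources used here. Reads on shared bases may have been set aside as ambiguous, which lowers the level, or may be partly those of the neighbor.

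The genes with the largest differences were read among called genes with a mean of at least 100 CPM and at least 10 counts in every pool of the higher population. On the HC side they were S100a8, Clec12a, Hp, Mpo, Prtn3, Stfa1, Plac8, Myo1g, Ccl4 and Myo1f, with log2 fold changes from 7.61 down to 6.99. S100a8, Mpo, Prtn3 and Stfa1 encode proteins of granulocytes and their precursors (calprotectin, myeloperoxidase, proteinase 3 and a stefin), Clec12a is a myeloid lectin receptor, and Ccl4 is a chemokine that macrophages release. Mpo was at 17.1 to 2479 CPM (median 578) in HC pools and 0.255 to 11.4 CPM (median 3.32) in EC pools, a log2 fold change of 7.36 (SE 0.54). Clec12a was steadier among HC pools, at 40.02 to 247 CPM (median 144), against 0 to 2.16 CPM (median 0.808) in EC pools, a log2 fold change of 7.52 (SE 0.24). Myo1f, a myosin of leukocytes, ranged from 120.4 to 277 CPM (median 192) in HC pools and from 0.302 to 2.97 CPM (median 1.14) in EC pools. For 9 of these 10 genes every HC pool lay above every EC pool, and the exception was S100a8, the most uneven of them, whose lowest HC pool had 3.55 CPM. Choosing genes by the largest difference and by counts in every pool of the higher population favors such a separation. Stfa1 has near-identical neighbours in the stefin A family, and its reads may have been divided among them.

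On the EC side the leading genes were Prl3b1, S100a16, Aplnr, Cldn5, Flt4, Emcn, Apold1, Robo4, Tmem255a and Sox18, with log2 fold changes from -8.41 to -7.41. Aplnr (the apelin receptor), Flt4 (VEGF receptor 3), Robo4 (an endothelial guidance receptor), Cldn5 (the claudin of endothelial tight junctions) and Sox18 (a SoxF transcription factor) are endothelial genes. S100a16 was at 487 to 869 CPM (median 560.1) in EC pools and 0.577 to 6.604 CPM (median 2.02) in HC pools, a log2 fold change of -8.06 (SE 0.21). Prl3b1, a prolactin family gene best known from the placenta, was at 72.98 to 253 CPM (median 123) in EC pools and 0 to 2.72 CPM (median 0.335) in HC pools, a log2 fold change of -8.41 (SE 0.29). Counts of this gene in every EC pool were a condition of its choice. For all 10 genes every EC pool lay above every HC pool, which the choice of genes favored here too.

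**Figure D2:**
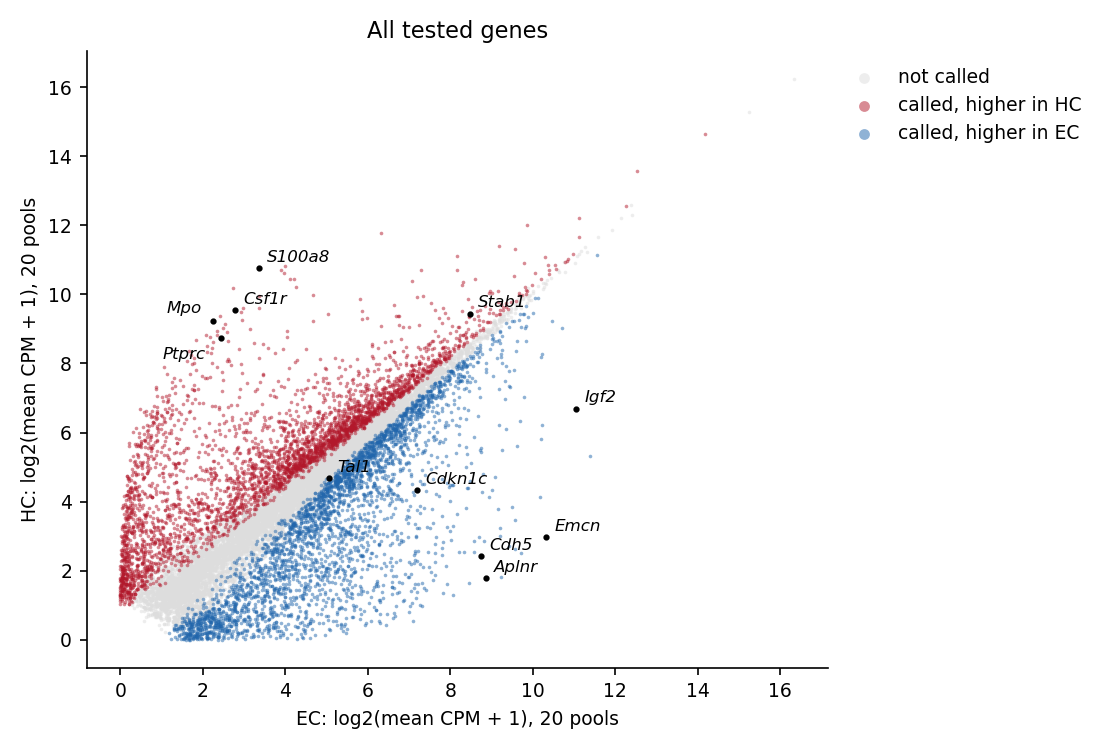
Mean level of each of 15502 genes in HC pools (y axis) against EC pools (x axis), both as log2(mean CPM + 1) over 20 pools, with 3460 genes called higher in HCs in red and 3277 called higher in ECs in blue. Cdh5, Emcn, Aplnr and Igf2 lie far below the diagonal, Ptprc, Csf1r, Mpo and S100a8 far above it, with Tal1 and Stab1 nearer to it.

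Promoters of some genes named here are shown beside counts of motifs over the whole comparison. RefSeq sequences (GRCm38.p6) of 250 bases before and 50 after a gene's start were matched by symbol to 10005 of the 15501 symbols tested, and the first listed start of each gene was searched on both strands for 4 motifs. GAGGAAGT is a form bound by the myeloid factor PU.1, the product of Spi1. CCGGAAGT is a common form of ETS sites and shares its last 6 letters with the first, so that no place counts for both. AGATAA is a form bound by Gata1 and its relatives, and TGTGGT one bound by Runx1 and its relatives. Printed 5′ to 3′ on the strand of the gene, with capitals at each match on either strand, are Emcn (chr3:137340828-137341127, plus strand) as a leading EC gene, the second listed start of Ptprc (chr1:138175077-138175376, minus strand), the 3 leading HC genes whose promoter held GAGGAAGT, which are S100a8 (chr3:90668821-90669120, plus strand), Mpo (chr11:87793534-87793833, plus strand) and Prtn3 (chr10:79879417-79879716, plus strand), and the macrophage gene C1qc (chr4:136892865-136893164, minus strand). The last 4 were chosen after the search.
Emcn: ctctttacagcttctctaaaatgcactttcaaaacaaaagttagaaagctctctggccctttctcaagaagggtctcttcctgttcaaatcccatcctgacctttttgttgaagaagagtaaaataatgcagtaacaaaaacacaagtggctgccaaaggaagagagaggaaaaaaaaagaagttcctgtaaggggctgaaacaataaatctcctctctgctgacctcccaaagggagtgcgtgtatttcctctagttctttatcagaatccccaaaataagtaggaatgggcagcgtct
Ptprc: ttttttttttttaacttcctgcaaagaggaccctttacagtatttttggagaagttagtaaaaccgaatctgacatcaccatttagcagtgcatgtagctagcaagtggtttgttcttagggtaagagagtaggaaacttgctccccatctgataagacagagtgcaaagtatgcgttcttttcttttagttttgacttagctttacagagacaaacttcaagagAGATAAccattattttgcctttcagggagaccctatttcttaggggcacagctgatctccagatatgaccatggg
S100a8: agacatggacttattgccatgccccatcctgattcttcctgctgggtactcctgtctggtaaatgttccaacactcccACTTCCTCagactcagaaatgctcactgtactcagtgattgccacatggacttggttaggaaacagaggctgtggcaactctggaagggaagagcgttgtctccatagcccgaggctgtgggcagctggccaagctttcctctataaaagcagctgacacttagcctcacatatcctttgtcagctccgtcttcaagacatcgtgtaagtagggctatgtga
Mpo: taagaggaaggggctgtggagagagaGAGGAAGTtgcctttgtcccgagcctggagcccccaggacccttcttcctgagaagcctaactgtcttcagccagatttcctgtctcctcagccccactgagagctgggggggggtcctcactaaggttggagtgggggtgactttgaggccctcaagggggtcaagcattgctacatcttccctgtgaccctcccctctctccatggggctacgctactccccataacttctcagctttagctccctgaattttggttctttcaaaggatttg
Prtn3: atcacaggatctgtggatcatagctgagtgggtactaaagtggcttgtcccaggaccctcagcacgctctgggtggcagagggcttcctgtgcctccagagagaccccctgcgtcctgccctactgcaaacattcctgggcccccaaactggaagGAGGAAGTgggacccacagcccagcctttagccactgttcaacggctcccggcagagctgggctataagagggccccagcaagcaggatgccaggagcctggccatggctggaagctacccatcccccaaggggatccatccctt
C1qc: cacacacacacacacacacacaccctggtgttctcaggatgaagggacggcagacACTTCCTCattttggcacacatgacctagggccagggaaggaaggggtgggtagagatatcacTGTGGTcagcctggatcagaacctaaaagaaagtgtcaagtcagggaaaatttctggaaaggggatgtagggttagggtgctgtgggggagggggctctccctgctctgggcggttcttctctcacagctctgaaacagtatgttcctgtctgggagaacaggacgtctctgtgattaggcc

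In Emcn none of the 4 motifs matched, and in Ptprc 1 AGATAA did. The GAGGAAGT match began 172 bases before the start in S100a8, 224 in Mpo, 95 in Prtn3 and 195 in C1qc. Over the genes more than 4-fold higher in HCs, 8.72% of 975 promoters held GAGGAAGT, beside 2.27% of 969 promoters of genes more than 4-fold higher in ECs and 3.43% of all 10005. TGTGGT stood in 18.9%, 11.7% and 12.4% of the same promoters, and AGATAA in 10.3%, 7.53% and 6.31%. CCGGAAGT was rarer in both groups of genes than over all promoters, at 1.95% on the HC side, 1.03% on the EC side and 8.56% overall. These shares describe letters in the promoter windows and were not tested.

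All 25 endothelial receptors and surface proteins listed were tested and were higher in ECs. The median log2 fold change of the list was -5.38, and for 23 of its genes every EC pool lay above every HC pool. Kdr, the main VEGF receptor of endothelium, was at 455 to 893 CPM (median 570.4) in EC pools and 0.974 to 20.96 CPM (median 4.61) in HC pools, a log2 fold change of -6.45 (SE 0.28). Flt4 was at 207 to 354 CPM (median 256) in EC pools and 0 to 4.099 CPM (median 1.05) in HC pools. Tek, the receptor of angiopoietins, was at 154 to 289 CPM (median 218) and 1.01 to 15.9 CPM (median 5.09) in the same order. The differences were smaller for some members. Cd34, the sialomucin shared by endothelium and progenitors, was at 23.7 to 308 CPM (median 109.8) in HC pools and 367 to 967 CPM (median 647) in EC pools, a log2 fold change of -2.37 (SE 0.16) with no overlap. S1pr1, the receptor of sphingosine-1-phosphate, had -2.19 (SE 0.14) and Icam2, an adhesion molecule, had -3.05 (SE 0.15). Per kilobase of exon, the most abundant of the list in ECs were Ramp2 (a calcitonin receptor partner) with 352 ± 55.1 CPM per kb (SD, n = 20), Plvap (the protein of endothelial diaphragms) with 345 ± 85.1 CPM per kb and Emcn with 238 ± 35.3 CPM per kb. Ramp2 and Plvap did not differ beyond their spread, and Ramp2 shares 33.4% of its exon bases with Vps25 on the same strand.

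**Figure D3:**
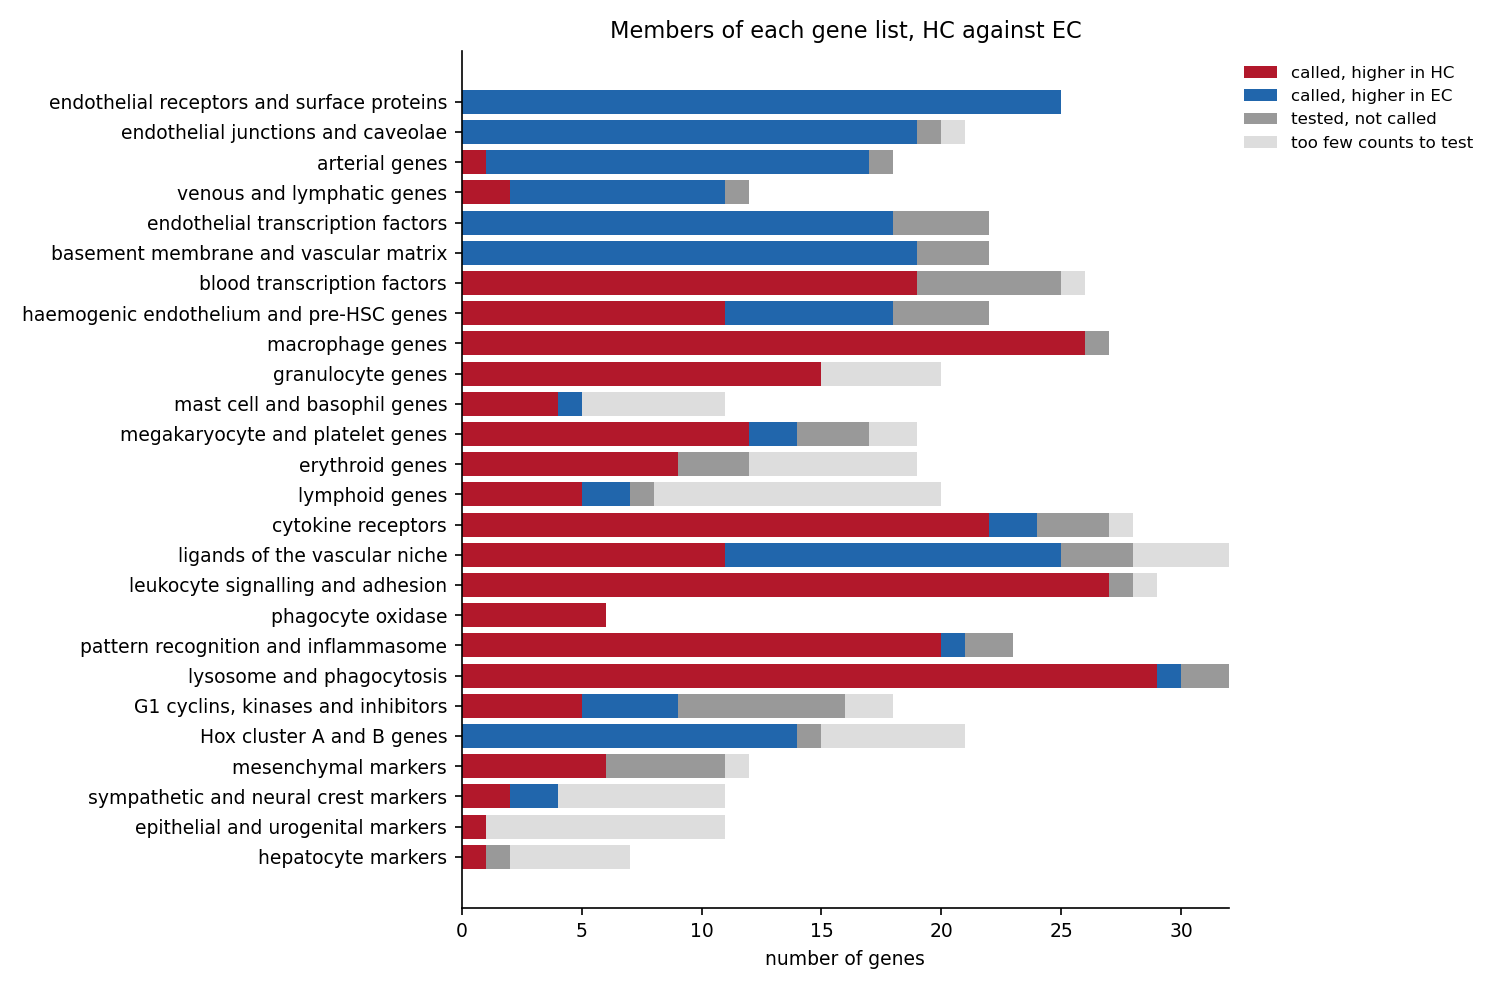
Number of genes of each of 26 lists that were called higher in HCs (red), called higher in ECs (blue), tested and not called (dark grey) or too rarely counted to be tested (light grey). The 6 endothelial lists at the top are mostly blue, and the lists of macrophage genes, leukocyte signalling, phagocyte oxidase, pattern recognition and lysosome mostly red.

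Junction, caveola and matrix genes were also higher in ECs. Of 21 junction and caveola genes, 19 were higher in ECs, 1 was not tested, and Cavin2 was not called. Cldn5 was at 582 to 1272 CPM (median 866) in EC pools and 1.25 to 12.4 CPM (median 5.14) in HC pools, a log2 fold change of -7.62 (SE 0.21). Cav1, the coat protein of caveolae, was at 48.7 to 229.6 CPM (median 137) in EC pools and 0 to 5.35 CPM (median 1.11) in HC pools, a log2 fold change of -6.41 (SE 0.29). Cavin2, a caveola protein that platelets also hold, reached 112 CPM in 1 HC pool (median 3.87) and had a log2 fold change of -0.50 (SE 0.53). Of 22 genes of the basement membrane and vascular matrix, 19 were higher in ECs and none in HCs, with a median log2 fold change of -4.16. Col4a1, a collagen IV chain and thus part of every basement membrane, was at 478 to 1315 CPM (median 754) in EC pools and 1.94 to 27.6 CPM (median 8.87) in HC pools. Lama4, the laminin alpha chain of vessels, was at 116 to 239 CPM (median 172) and 0.191 to 5.35 CPM (median 1.58). Even the lowest EC pool exceeded the highest HC pool for both. Sparc, a matrix-binding glycoprotein, was the most abundant of the list per kilobase, with 312 ± 68.9 CPM per kb (SD, n = 20) in ECs beside 101 ± 23.8 CPM per kb for Col4a1. The genes not called were Fbln5, Eln and Igfbp7, with log2 fold changes of -0.17 (SE 0.57), -1.37 (SE 0.50) and -1.78 (SE 0.70).

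Of 22 endothelial transcription factors, 18 were higher in ECs and none in HCs. Sox18 was at 249 to 462 CPM (median 343) in EC pools and 0.264 to 4.49 CPM (median 1.73) in HC pools. Erg, an ETS factor that keeps endothelial identity, was at 36.7 to 78.4 CPM (median 55.6) in EC pools and 0 to 12.2 CPM (median 0.593) in HC pools, a log2 fold change of -4.73 (SE 0.39). Ets1 differed by -4.95 (SE 0.24) and Elk3 by -3.20 (SE 0.11). By contrast Fli1, an ETS factor of both lineages, was at 103 to 263 CPM (median 194) in EC pools and 75.1 to 185 CPM (median 127) in HC pools, overlapping ranges with a log2 fold change of -0.52 (SE 0.10). Tal1, the factor that both lineages need from their common origin, was at 11.4 to 59.7 CPM (median 31.3) in EC pools and 8.74 to 60.6 CPM (median 20.1) in HC pools and was not called (adjusted p = 0.113, edgeR). Its partner Lmo2 was higher in ECs, with a log2 fold change of -0.74 (SE 0.15). Gata2, Hhex and Klf2 were not called either, with log2 fold changes of -0.58 (SE 0.42), -0.08 (SE 0.13) and -0.08 (SE 0.17).

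Arterial and venous genes were both found in ECs. Of 18 arterial genes, 16 were higher in ECs, with a median log2 fold change of -3.71, and of 12 venous and lymphatic genes, 9 were higher in ECs and 2 in HCs. Efnb2, the arterial ephrin, was at 35.1 to 206 CPM (median 104) in EC pools and 0.506 to 18.7 CPM (median 3.82) in HC pools. Its venous receptor Ephb4 was at 84.9 to 188 CPM (median 122) and 0.0962 to 10.47 CPM (median 1.56). Nr2f2, which encodes the venous factor COUP-TFII, was at 89.5 to 357 CPM (median 190.4) in EC pools, so that every EC pool held RNA of both kinds of vessel. Dll4 and Notch4, a ligand and a receptor of the Notch pathway that sets arterial fate, had log2 fold changes of -5.81 (SE 0.38) and -5.75 (SE 0.27). The 2 genes of the venous and lymphatic list that were higher in HCs were Dab2, at 479 to 1186 CPM (median 824) in HC pools and 66.8 to 154 CPM (median 90.8) in EC pools, and Stab1, at 408 to 1193 CPM (median 631) and 226 to 584 CPM (median 347). Both encode endocytic proteins that macrophages also make. Lyve1, the hyaluronan receptor of lymphatic endothelium and of tissue macrophages, spanned 0.791 to 80.9 CPM (median 34.01) in HC pools and 2.47 to 106 CPM (median 22.4) in EC pools and was not called (log2 fold change 0.20, SE 0.43). Cxcl12, listed with arterial genes and made by stromal cells too, was higher in HCs, at 0 to 97.4 CPM (median 5.25), than in ECs, at 0 to 22.7 CPM (median 0.723), a call lost with the test of scanpy (log2 fold change 2.37).

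The genes with the largest SD of log2(CPM + 1) among EC pools, of 3746 genes with a mean of at least 50 CPM, included Gja4, Prox1, Tfrc, Depp1 and Madcam1. Gja4, which encodes the arterial connexin 37, had an SD of 1.73 on that scale where the median gene had 0.33, and was at 3.69 to 281 CPM (median 75.7). It was above 10 CPM in 17 EC pools, from 25.4 CPM upward, and between 3.69 and 8.09 CPM in the other 3. Prox1, the master factor of lymphatic endothelium, was at 1.51 to 153 CPM (median 47.5) in EC pools and above 10 CPM in 18 of them, with 0 to 14.4 CPM (median 3.75) in HC pools. Tfrc, the transferrin receptor, was not called between the populations (log2 fold change 0.37, SE 0.26). Madcam1, an addressin for homing leukocytes, was at 14.1 to 133 CPM (median 42.1) in EC pools and 0 to 1.91 CPM (median 0.388) in HC pools.

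Macrophage genes were high in every HC pool. Of 27 genes listed, 26 were higher in HCs, with a median log2 fold change of 6.49, and for 25 every HC pool lay above every EC pool. Summed over the list, HC pools were at 9455 to 17893 CPM (median 13229.5) and EC pools at 171 to 396 CPM (median 254), so the highest HC pool had 1.89 times the level of the lowest. C1qb, a chain of the complement protein C1q, was at 878 to 2455 CPM (median 1763) in HC pools and 8.15 to 32.5 CPM (median 12.9) in EC pools, a log2 fold change of 6.90 (SE 0.17). Cx3cr1, the fractalkine receptor of early tissue macrophages, was at 235 to 739.6 CPM (median 468) in HC pools and 2.13 to 22.4 CPM (median 3.55) in EC pools. Mrc1, the mannose receptor, was at 405 to 1146 CPM (median 816) and 4.95 to 16.7 CPM (median 9.36) in the same order. All 3 were present throughout the HC pools. Adgre1, the gene of F4/80, differed by 6.39 (SE 0.18) and Trem2, a lipid receptor of macrophages, by 6.95 (SE 0.20). Timd4, a receptor for dying cells that marks older resident macrophages, was low, at 0.691 to 26.4 CPM (median 4.97) in HC pools. Maf, a transcription factor of macrophages, was at 282 to 623 CPM (median 447) in HC pools and 5.44 to 36.5 CPM (median 13.8) in EC pools. Per kilobase of exon, Tyrobp (the DAP12 adaptor) had 2497 ± 415 CPM per kb (SD, n = 20), C1qb 1648 ± 336 CPM per kb and Fcer1g (the Fc receptor gamma chain) 1601 ± 220.1 CPM per kb in HCs, and the last 2 overlapped within their spread.

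The signalling, oxidase, sensing and lysosomal genes of phagocytes followed. Of 29 genes of leukocyte signalling and adhesion, 27 were higher in HCs, 26 of them with every HC pool above every EC pool. Coro1a, an actin regulator of leukocytes, was at 1057 to 1794 CPM (median 1421) in HC pools and 5.24 to 35.2 CPM (median 13.8) in EC pools, a log2 fold change of 6.44 (SE 0.17). Cd53, a leukocyte tetraspanin, was at 229 to 459 CPM (median 366) and 1.497 to 6.29 CPM (median 2.92). Members also found in EC pools differed less. Lyn, a Src family kinase, was at 149.6 to 289.9 CPM (median 225) in HC pools and 55.9 to 123 CPM (median 87.4) in EC pools, a log2 fold change of 1.38 (SE 0.09). All 6 genes of the phagocyte oxidase were higher in HCs without overlap, among them Cybb, the catalytic subunit, with 123 to 279 CPM (median 181) and 0 to 3.84 CPM (median 1.84). Of 23 genes of pattern recognition and the inflammasome, 20 were higher in HCs and Tlr3 alone in ECs. For 14 of the 23 no EC pool reached 10 counts, so these passed the filter through HC pools alone. Tlr7, a sensor of single-stranded RNA, was at 23.9 to 87.03 CPM (median 51.9) in HC pools and 0 to 1.42 CPM (median 0.425) in EC pools. Tlr3, the sensor of double-stranded RNA, was at 0 to 7.65 CPM (median 2.77) and 0 to 35.3 CPM (median 13.9) in the same order, a log2 fold change of -2.20 (SE 0.45) with overlapping pools. Of 32 genes of the lysosome and of phagocytosis, 29 were higher in HCs. Ctsb, the lysosomal protease cathepsin B, was at 1217 to 3378 CPM (median 2263) in HC pools and 204 to 371 CPM (median 285) in EC pools. All 8 cathepsins of the list were higher in HCs, from a log2 fold change of 0.73 (SE 0.10) for Ctsl and 0.83 (SE 0.16) for Ctsh, through 2.21 (SE 0.10) for Ctsa, 2.23 (SE 0.13) for Ctsd, 2.62 (SE 0.08) for Ctsz and 2.97 (SE 0.11) for Ctsb, to 6.03 (SE 0.19) for Ctsc and 6.77 (SE 0.14) for Ctss. Dock1, a guanine nucleotide exchange factor used in engulfment and cell migration, was higher in ECs, with a log2 fold change of -1.91 (SE 0.14).

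Granulocyte genes differed widely among HC pools. Of 20 genes, 15 were higher in HCs and 5 had too few counts to be tested, and only 3 of the list (Mpo, Prtn3 and Csf3r) had every HC pool above every EC pool. For 13 of the 20 no EC pool reached 10 counts. Those of them that were tested passed the filter through HC pools alone, which nearly fixed their direction. The sum over the list was 144 to 30456 CPM (median 1623) in HC pools and 5.94 to 82.2 CPM (median 23.8) in EC pools. The most variable genes of the HC pools, by the SD of log2(CPM + 1) among 3805 genes with a mean of at least 50 CPM, were S100a8, S100a9, Camp, Gm5483, Stfa2l1 and Lcn2. S100a8 had an SD of 4.02 where the median gene had 0.31. It was above 1000 CPM in 8 HC pools, from 1319.7 to 15137 CPM, and between 3.55 and 312 CPM in the other 12. Camp, the antimicrobial peptide cathelicidin of maturing neutrophils, was at 235 to 2008 CPM in 7 HC pools, all of them among those 8, and at most at 3.74 CPM in the other 13, a range that EC pools shared. Mpo, made earlier in the granulocyte and monocyte lineage, was more widely spread, above 100 CPM in 15 HC pools and between 17.1 and 60.4 CPM in the rest. Ly6g, the surface marker of mature neutrophils, had no count in any HC pool, which allows at most 3 counts per pool, counting error only. Eosinophil genes were in still fewer pools. Prg2, the major basic protein, was at 124 to 1307 CPM in 3 HC pools and at most at 3.82 CPM in the other 17. The 3 pools also had Epx, the eosinophil peroxidase, at 79.1, 17.3 and 42.5 CPM. Epx was above 10 CPM in 1 further pool, the one of low ambiguous share, with 11.7 CPM beside 0.192 CPM of Prg2.

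**Figure D4:**
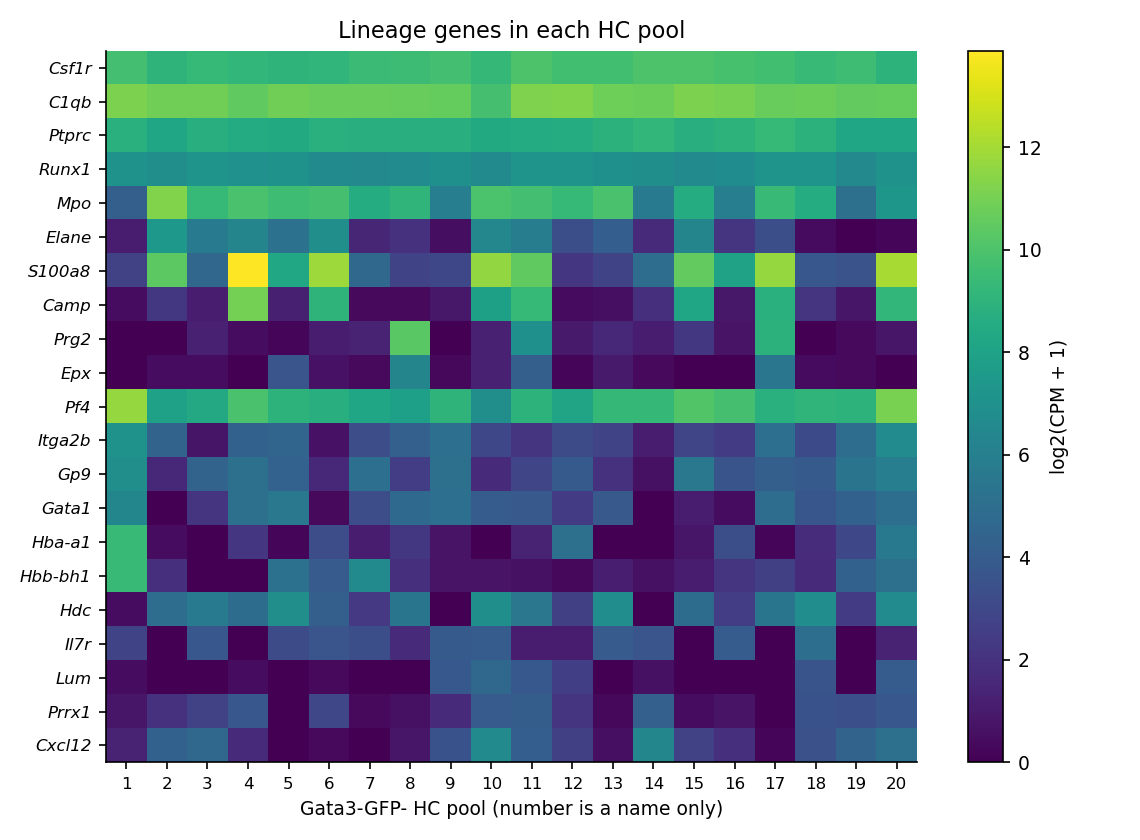
Level of 21 genes in each of the 20 HC pools, as log2(CPM + 1) in color. The rows of Csf1r, C1qb, Ptprc and Runx1 are even across pools, S100a8 and Camp are high in 8 and 7 pools, Prg2 in 3, Hba-a1 in 1, and Itga2b and Gp9 highest in 2.

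Megakaryocyte genes were found in most HC pools at uneven levels, and erythroid genes were high in 1. Of 19 megakaryocyte and platelet genes, 12 were higher in HCs and Clec1b and Vwf were higher in ECs. Pf4, the platelet chemokine, was at 115 to 3315 CPM (median 501) in HC pools and 14.5 to 122 CPM (median 55.04) in EC pools, and 19 of the 20 HC pools lay above every EC pool. The sum over the list was 335 to 5447 CPM (median 941) in HC pools and 191 to 524 CPM (median 349) in EC pools. Itga2b exceeded 100 CPM in 2 HC pools, at 134 and 105 CPM, and was at most at 32.8 CPM in the others, with 9 HC pools above 10 CPM and no EC pool. Its call was lost with the test of scanpy (log2 fold change 1.57). Gp9, a subunit of the platelet receptor for von Willebrand factor, was highest in these 2 pools too, at 117 and 61.4 CPM, and above 10 CPM in 13 HC pools. Vwf itself, which both platelets and endothelium store, was at 1.98 to 59.8 CPM (median 6.73) in HC pools and 20.1 to 145 CPM (median 47.98) in EC pools, a log2 fold change of -2.54 (SE 0.34). Clec1b, which encodes the podoplanin receptor CLEC-2 of platelets, was at 137 to 288 CPM (median 178) in EC pools and 1.46 to 115 CPM (median 16.4) in HC pools, without overlap and with a log2 fold change of -2.99 (SE 0.34). Of the 19 erythroid genes counted, 9 were higher in HCs, 3 were not called and 7 were not tested. Their sum was 15.7 to 1734 CPM (median 110.0) in HC pools and 9.71 to 89.4 CPM (median 23.03) in EC pools. Hba-a1, an alpha globin, was at 682 CPM in 1 HC pool and at most at 47.1 CPM in the other 19. The same pool held the embryonic globin Hbb-bh1 at 672 CPM, and it was 1 of the 2 pools highest in Itga2b. Hba-a1 and Hba-a2, like Hbb-bs and Hbb-bt, are near-identical copies whose reads could have been split, so their values are uncertain.

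Mast cell and lymphoid genes were scarce. Of 11 mast cell and basophil genes, 4 were higher in HCs, 6 were too low to test and Kit was higher in ECs. Hdc, the enzyme that makes histamine, was at 0 to 118 CPM (median 29.5) in HC pools, and Cpa3, a protease of mast cells, at 0 to 51.99 CPM (median 1.45). Of 20 lymphoid genes, 12 were too low to test, T cell receptor genes of the CD3 complex and Rag1 and Rag2 among them. For 12 of the 20, Il7r included, no EC pool reached 10 counts. Those of them that were tested passed the filter through HC pools alone. Il7r, Cd79b, Icos, Nkg7 and Klrd1 were higher in HCs, with log2 fold changes of 5.52 (SE 0.73), 3.69 (SE 0.23), 5.03 (SE 0.45), 6.81 (SE 0.74) and 5.72 (SE 0.94), and Tcf7 missed the threshold with -1.84 (SE 0.62), which it passed under 4 alternatives. Il7r, the interleukin 7 receptor of early lymphoid and myeloid progenitors, was at 0 to 31.9 CPM (median 7.05) in HC pools and 0 to 0.698 CPM (median 0) in EC pools. Lef1 and Ebf1, transcription factors of lymphoid cells with wider roles, were higher in ECs, with log2 fold changes of -5.18 (SE 0.42) and -2.04 (SE 0.22).

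Of 26 transcription factors of blood, 19 were higher in HCs and none in ECs. Spi1, the gene of PU.1, was at 310.5 to 569 CPM (median 441) in HC pools and 1.12 to 9.85 CPM (median 3.100) in EC pools, a log2 fold change of 6.95 (SE 0.15). Runx1, needed for blood to leave the endothelium, was at 90.9 to 147 CPM (median 125) in HC pools and 0.5097 to 6.62 CPM (median 1.75) in EC pools, a log2 fold change of 5.88 (SE 0.19). No HC pool had less Runx1 than 90.9 CPM. Ikzf1 and Irf8 differed by 6.18 (SE 0.26) and 6.04 (SE 0.21), and Cebpa, which directs granulocyte fate, by 7.67 (SE 0.43). Factors of megakaryocytes and red cells were uneven, with Gata1 at 0 to 81.2 CPM (median 13.6) and Klf1 at 0 to 25.9 CPM (median 2.02) in HC pools. Cbfb, the partner of RUNX proteins, was at 49.3 to 161 CPM (median 93.4) in HC pools and 53.2 to 151 CPM (median 115) in EC pools and was not called (log2 fold change -0.17, SE 0.13).

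Genes of hemogenic endothelium and of stem cell precursors divided between the populations. Of 22 listed, 11 were higher in HCs, 7 were higher in ECs and 4 were not called. On the HC side Myb, a factor of definitive progenitors, was at 11.3 to 67.2 CPM (median 24.9) in HC pools and 0 to 5.33 CPM (median 0.611) in EC pools, and Adgrg1, an adhesion receptor of the same cells, at 1.98 to 138 CPM (median 31.6) and 1.42 to 15.8 CPM (median 4.97). The adhesion molecule Cd44 was at 119 to 296 CPM (median 215) in HC pools and 1.58 to 24.9 CPM (median 8.55) in EC pools, without overlap. On the EC side Procr, the protein C receptor, differed by -3.92 (SE 0.34), Mecom by -3.40 (SE 0.33) and Sox17 by -6.37 (SE 0.26). Kit, the receptor of stem cell factor, was at 22.3 to 121 CPM (median 61.4) in EC pools and 0.632 to 54.7 CPM (median 15.6) in HC pools, a log2 fold change of -1.71 (SE 0.30). Gfi1, a Runx1 target in hemogenic cells, was rare in both, with 0 to 11.8 CPM (median 0) in HC pools and 0 to 8.66 CPM (median 0) in EC pools, and was not called. Hlf, a factor of stem cells, was at 0 to 6.23 CPM (median 0.2396) and 0 to 4.38 CPM (median 0) and was not called.

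Cytokine receptors were mostly higher in HCs, and ligands divided between the populations. Of 28 cytokine receptors, 22 were higher in HCs and Kit and Lifr in ECs, and of 32 ligands counted, 11 were higher in HCs and 14 in ECs. Kitl, the ligand of Kit, was at 37.3 to 240.3 CPM (median 103) in EC pools and 0 to 18.95 CPM (median 2.86) in HC pools, so that ligand and receptor were both higher in ECs. Csf1, a ligand of Csf1r, was at 0 to 8.92 CPM (median 1.995) in EC pools and 0 to 6.99 CPM (median 0.877) in HC pools and was not called, and Il34, the other ligand, was too low to test. Cx3cl1, the ligand of Cx3cr1, was at 1.34 to 25.7 CPM (median 15.2) in EC pools and 0 to 8.77 CPM (median 0.645) in HC pools, a log2 fold change of -2.92 (SE 0.46) against 6.49 (SE 0.22) for its receptor. Apln, the ligand of Aplnr, differed by -6.88 (SE 0.44), and thus lay on the same side as its receptor. Bmp4 was at 12.98 to 117 CPM (median 54.4) in EC pools and 0 to 5.77 CPM (median 0.294) in HC pools, a log2 fold change of -6.48 (SE 0.43). Igf2, the fetal growth factor, was at 1597 to 3356 CPM (median 2003) in EC pools and 20.7 to 211 CPM (median 85.7) in HC pools, and Igf1 at 103 to 336 CPM (median 238) and 27.6 to 129.9 CPM (median 71.9). Inflammatory ligands were higher in HCs. Ccl3 was at 211 to 1208 CPM (median 476) in HC pools and 0.748 to 10.51 CPM (median 3.78) in EC pools, and Tnf at 0.388 to 27.9 CPM (median 11.46) and 0 to 2.02 CPM (median 0). Gas6, a bridge to dying cells, and its receptors Mertk and Axl were higher in HCs by 2.59 (SE 0.24), 4.56 (SE 0.31) and 2.85 (SE 0.57).

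Regulators of the G1 phase were mixed. Of 18 genes, 5 were higher in HCs, 4 were higher in ECs, 7 were not called and 2 were too low to test. Over all genes tested, 22.3% were higher in HCs and 21.1% in ECs. Whether the list departs from these shares was not tested. Ccnd1, cyclin D1, was at 99.8 to 264 CPM (median 169.8) in EC pools and 13.6 to 79.1 CPM (median 32.6) in HC pools, a log2 fold change of -2.34 (SE 0.17) without overlap. Its kinase partners parted, with Cdk4 at 756 to 1222 CPM (median 899) in EC pools and 369.9 to 734 CPM (median 542) in HC pools and Cdk6 at 16.7 to 71.4 CPM (median 38.8) and 111 to 310.1 CPM (median 192). Cdkn1c, the gene of the inhibitor p57, was at 87.00 to 295 CPM (median 133) in EC pools and 2.11 to 111 CPM (median 11.52) in HC pools, a log2 fold change of -2.93 (SE 0.33) and the highest HC pool lay inside the EC range. The retinoblastoma family genes Rb1, Rbl1 and Rbl2 were higher in HCs by 1.26 (SE 0.21), 1.17 (SE 0.15) and 1.36 (SE 0.29). Hox genes, which record position along the body axis, were higher in ECs wherever they were called. Of 21 genes of clusters A and B, 14 were higher in ECs and none in HCs, with a median log2 fold change of -3.54. Hoxb7 was at 8.54 to 38.6 CPM (median 22.9) in EC pools and 0 to 1.91 CPM (median 0.0632) in HC pools, and the ranges did not overlap. Hoxa9, which progenitors also use, was at 8.33 to 41.6 CPM (median 23.6) in EC pools and 0 to 51.3 CPM (median 0.657) in HC pools, a log2 fold change of -1.73 (SE 0.52).

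Markers of other AGM cells were low in both populations. Of 12 mesenchymal markers, 6 were higher in HCs, and their sum was 10.9 to 198 CPM (median 59.9) in HC pools and 10.52 to 81.8 CPM (median 27.5) in EC pools. Lum, a proteoglycan of connective tissue, was between 4.88 and 23.7 CPM in 6 HC pools and at most at 0.566 CPM in the other 14, and each of these 6 pools had Prrx1 above 1 CPM and Cxcl12 above 5 CPM. In all, 12 HC pools had Prrx1 above 1 CPM and 11 had Cxcl12 above 5 CPM, and the pool with the second highest Cxcl12, at 82.4 CPM, had Lum at 0.566 CPM. The part of mesenchymal markers in the difference of Cxcl12 was not tested. Of 11 sympathetic and neural crest markers, 7 were too low to test, Phox2a and Sox10 among them, 2 were higher in HCs and 2 were higher in ECs. Stmn2, a tubulin-binding protein, was 1 of those higher in ECs, at 13.4 to 139.9 CPM (median 41.98), beside 0.283 to 3.82 CPM (median 1.103) in HCs. The sum of these markers, Stmn2 included, was 1.73 to 21.5 CPM (median 9.46) in HC pools and 24.1 to 146 CPM (median 47.4) in EC pools. Of 11 epithelial and urogenital markers only Krt18 had enough counts to be tested, and it was higher in HCs, with a sum over the list of 1.78 to 25.8 CPM (median 9.75) in HC pools and 0.9903 to 9.89 CPM (median 3.42) in EC pools. Of 7 hepatocyte markers Afp, at 0 to 6.32 CPM (median 0.698) in HC pools and 0 to 0.412 CPM (median 0) in EC pools, was higher in HCs, Apoa2 was not called, and Alb was too low to test.

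Each population held a low level of the other's genes. Mean levels of the 27 macrophage genes in EC pools had a median of 1.103% of those in HC pools, and 22 of the 27 lay between 0.5% and 2%. Their summed level per EC pool was 1.26% to 2.92% of the HC mean, and no macrophage gene of the list was without counts in every EC pool. Tyrobp, for example, was at 5.61 to 33.2 CPM (median 11.8) in EC pools. In the other direction, the 25 endothelial receptors in HC pools had a median of 2.396% of the level in EC pools, with 12 between 0.5% and 2%. What these levels came from was not tested.

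The contrast was set beside the same one in Gata3-GFP+ cells of the same stage. HCs minus ECs was fitted in both fractions at once, with 20 and 20 GFP- pools and 20 HC and 19 EC pools that were GFP+, and the difference of both contrasts was tested in 17851 genes. It was called in 1536 genes (8.6%) with a larger and 2524 (14.1%) with a smaller HC minus EC difference in GFP- pools (edgeR). Scaling by ERCC RNAs in place of TMM turned this split to 519 and 5241 and moved the median over all genes from -0.11 to -0.75, so directions depend on the scaling. Of the 4 markers, Cdh5 and Csf1r were not called, with differences of -0.16 (SE 0.25) and 0.42 (SE 0.35), and the Csf1r value changed sign under ERCC scaling. Ptprc missed the threshold, with 1.28 (SE 0.41) and an adjusted p of 0.0106 (edgeR). Emcn did pass it, with -1.89 (SE 0.25).

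Most granulocyte and megakaryocyte genes had contrasts that differed between the fractions. Over all genes tested, 8.6% had a larger and 14.1% a smaller contrast in GFP- pools. Of 27 macrophage genes, 3 had a larger and 1 a smaller one, and whether this departs from those shares was not tested. The median of the macrophage list, 0.36, turned to -0.39 under ERCC scaling. Of 17 granulocyte genes tested, 12 had a larger contrast in GFP- pools and none a smaller one. Members that were low in the other groups, such as Camp, passed the filter mainly through GFP- HC pools, which favors a larger contrast. With 10 counts required in at least 20 pools, 6 granulocyte genes were tested, of which 4 had a larger contrast and 0 a smaller one. S100a8 was at 0 to 102 CPM (median 9.24) in GFP+ HC pools, a range far below the 8 high GFP- pools, and the contrasts differed by 6.87 (SE 1.07). Camp was at 0 to 2.998 CPM (median 0.611) in GFP+ HC pools, and its contrasts differed by 7.90 (SE 1.49). Of 19 megakaryocyte and platelet genes, 17 had a smaller contrast in GFP- pools, with a median of -4.14. Pf4 was at 1207 to 38006 CPM (median 5677) in GFP+ HC pools, and the difference of its contrasts was -4.14 (SE 0.50). Clec1b changed sides altogether. It was at 17.2 to 1467 CPM (median 221) in GFP+ HC pools and 1.09 to 176 CPM (median 19.1) in GFP+ EC pools, and its contrast was 3.70 there against -3.02 in GFP- pools.

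**Figure D5:**
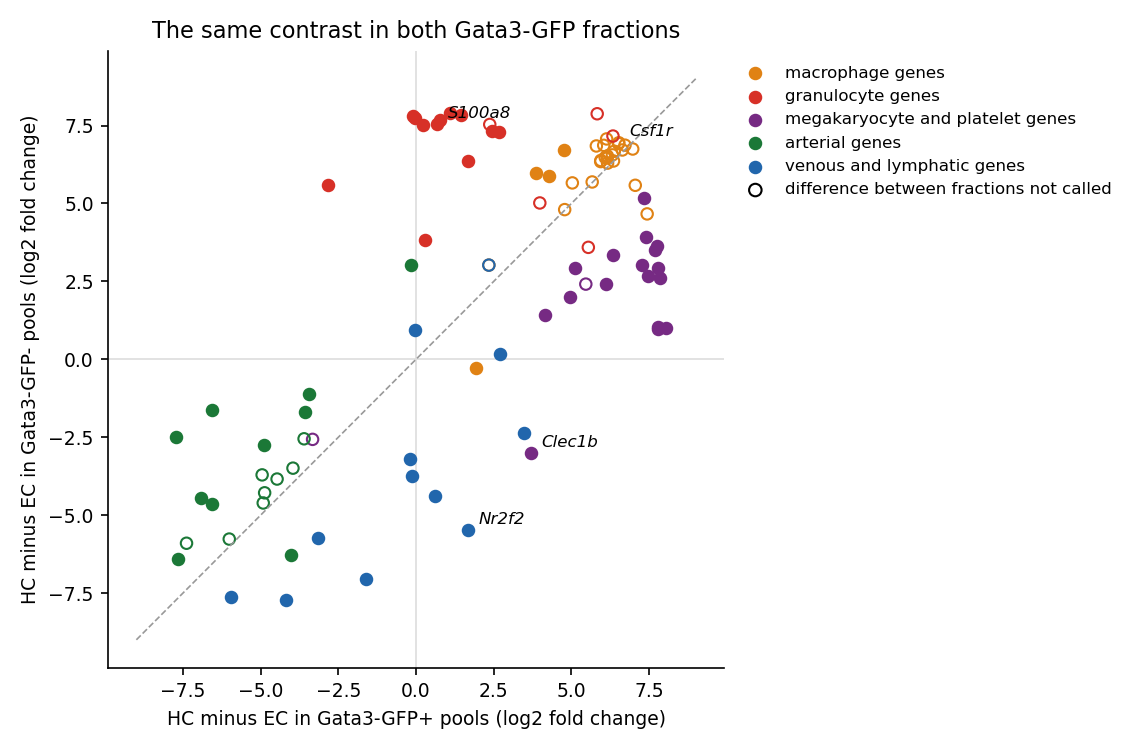
HC minus EC log2 fold changes in GFP- pools (y axis) against GFP+ pools (x axis) for the genes of 5 lists, with filled points where the difference between fractions was called. Macrophage genes (orange) lie near the dashed diagonal, most granulocyte (red) and arterial genes (green) above it, and most megakaryocyte (purple) and venous or lymphatic genes (blue) below it, with Nr2f2 at -5.47 in GFP- and 1.68 in GFP+ pools.

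Venous and arterial genes differed between the fractions in opposite directions. Of 12 venous and lymphatic genes, 10 had a smaller HC minus EC difference in GFP- pools and Stab1 a larger one, with a median of -3.26. Nr2f2 was at 91.9 to 362 CPM (median 192) in GFP- EC pools and 0.559 to 51.1 CPM (median 11.1) in GFP+ EC pools, and its contrasts differed by -7.15 (SE 0.58). Of 18 arterial genes, 9 had a larger HC minus EC difference in GFP- pools, in all of them but Cxcl12 because the contrast was less negative than in GFP+ pools, and Unc5b a smaller one. Under ERCC scaling, 6 arterial genes had a larger difference and 1 a smaller one, beside 0 and 10 of the venous and lymphatic genes. Over all genes tested, 8.6% had a larger and 14.1% a smaller difference with TMM. Gja5, the arterial connexin 40, had contrasts of -2.50 in GFP- and -7.72 in GFP+ pools, a difference of 5.21 (SE 0.50). Runx1 had a larger contrast in GFP- pools, by 3.51 (SE 0.53), with 17.6 to 136 CPM (median 86.8) in GFP+ HC pools and 0.434 to 66.6 CPM (median 4.52) in GFP+ EC pools. Cdkn1c, higher in ECs of the GFP- fraction, was at 39.5 to 1202 CPM (median 203) in GFP+ HC pools and 227 to 560.1 CPM (median 379) in GFP+ EC pools, and its contrasts differed by -2.76 (SE 0.44).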

How the data were processed

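The deposited file is a table of read counts per gene and per ERCC spike-in RNA for 160 pools, made by the authors from Smart-seq2 libraries of 20 cells sorted into each well. The study's methods name STAR, Ensembl annotation and HTSeq, whereas the submitters' processing notes name GSNAP, HTSeq 0.5.3p3 and mm10, so the aligner is uncertain. No strand setting is given in the sources used here. Groups came from the labels. The column headers name a population without a pool number, so pools were numbered within a population as a name only. The limits on pools given at the start left 153 of 160 pools and all 40 compared here. A robust quasi-likelihood fit with TMM normalization (edgeR 4.0.16, R 4.3.3) was made on the deposited counts of genes with 10 counts in 5 pools, and on the difference of contrasts between GFP fractions in 1 fit of 4 populations. P-values were adjusted by Benjamini-Hochberg over all genes tested. On counts simulated for 15502 genes of the HC and EC pools, 57.1% of tested 2-fold and 80.8% of tested 4-fold changes were called, with 0 false calls. The simulated pools were independent, and 197 of 14986 genes tested there were changed. These rates therefore need not hold for the data, where 43.5% of genes were called and pools share biological replicates. Alternatives used DESeq2 1.42.0, scran 1.30.0, scanpy 1.11.5, ERCC scaling, other filters and thresholds, and fewer pools. The genes named were the members of 26 lists, the 10 with the largest fold change on each side among called genes with a mean of at least 100 CPM and 10 counts in every pool of the higher population, the 6 most variable of each population, and the 5 largest differences of contrasts in each direction. The members and lists were chosen with earlier results of these data known. Some items of these lists are not reported here. A limit of 3 counts stands for a count of 0 and covers counting error only.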

Additional observations from a re-analysis of the deposited data

Results flagged for a closer look

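The difference between HCs and ECs was itself different in GFP- and GFP+ pools for 1536 genes (larger in GFP- pools) and 2524 genes (smaller), by the test of the difference of contrasts in edgeR. These counts became 519 and 5241 when ERCC RNAs set the scale. The largest differences were read among called genes with a mean of at least 50 CPM in 1 or more of the 4 populations, and 4 of the 5 largest positive ones were Camp, Ngp, Gm5483 and Stfa2l1. The contrast of Camp was larger by 7.90 (SE 1.49) on the log2 scale, that of Ngp, a neutrophil granule protein, by 7.78 (SE 1.51), and that of S100a8 by 6.87 (SE 1.07). Gm5483 and Stfa2l1, of the stefin A family, had 7.58 (SE 1.29) and 7.43 (SE 1.46), and near-identical copies make these values uncertain. For Camp, Ngp, Gm5483 and Stfa2l1 no GFP+ HC pool and no EC pool of either fraction exceeded 5 CPM. These genes thus passed the filter mainly through GFP- HC pools, which favors a larger contrast. St8sia6, a sialyltransferase, had 7.32 (SE 0.83), with 15.8 to 87.9 CPM (median 59.5) in GFP+ EC pools and 0 to 13.3 CPM (median 0.364) in GFP- EC pools. Runx1 had 3.51 (SE 0.53).

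Among the smaller ones, Cxcl14 had -9.25 (SE 1.28) and Ccl5 had -8.37 (SE 1.56). Both encode chemokines and both were uneven among GFP+ HC pools, at 0 to 193 CPM (median 9.37) and 0 to 1119.9 CPM (median 1.26), with at most 3.48 and 3.23 CPM in GFP- HC pools. Bmp4 had -8.30 (SE 0.68), with 0.5201 to 175 CPM (median 34.9) in GFP+ HC pools and 12.98 to 117 CPM (median 54.6) in GFP- EC pools. Apold1, an endothelial early response gene, had -7.28 (SE 0.62) and Nr2f2 had -7.15 (SE 0.58). Clec1b had -6.72 (SE 0.65), Pf4 had -4.14 (SE 0.50), Itga2b had -3.72 (SE 0.69), Cdkn1c had -2.76 (SE 0.44) and Emcn had -1.89 (SE 0.25).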

How the results depend on the processing

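No paired analysis was possible because the columns of the count table carry the name of a population and no pool number. Between HCs and ECs, the counts of 3460 and 3277 genes fell to 1497 and 1505 when the change had to exceed 2-fold (glmTreat), and stayed within 1.5 times under the 11 other alternatives, which include leaving out the HC pool of low ambiguous share (3401 and 3278) and the 3 deepest HC pools (3221 and 3222), both added after the data were seen. Of the counts of list members, 303 of 312 alternatives were within 1.5 times. Sympathetic markers higher in HCs were 1 of 11 with DESeq2 size factors, ERCC scaling, DESeq2's Wald test or without the 3 deepest pools, and 0 in 1 fit of 4 populations, where 1 erythroid gene was higher in ECs and 2 epithelial markers were higher in HCs. Without the 3 deepest pools 0 hepatocyte markers were higher in HCs and 1 in ECs. ERCC scaling gave 519 and 5241 genes for the difference of contrasts, turned Csf1r there to -0.29, and turned Fbln5 to 0.13 and Klf2 to 0.0067 on the log2 scale, none of them called. For Ptprc it passed the threshold with DESeq2 size factors (1.33) and DESeq2's Wald test (1.31). Of 815 alternatives for single named genes, 796 kept direction and call, 10 lost the call (Gata3 with ERCC scaling, Hbb-bs with DESeq2's Wald test, and Cxcl12, Hba-a1, Hba-a2, Hbb-bs, Itga2b, Lum, Ngp and Prg2 with the test of scanpy), 7 gained it and 2 reversed, Fbln5 and Klf2. The cause of these changes was not tested. Levels of a few CPM are imprecise at this depth, and a gene at 0 counts may still be present below 3 counts.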

Other observations

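Further lists differed between the GFP fractions, with counts that depended on the scale. The HC minus EC difference was larger in GFP- pools for 14 of 29 genes of leukocyte signalling and adhesion (7 with ERCC scaling), for 18 of 32 genes of the lysosome and of phagocytosis (5), for 11 of 28 cytokine receptors (5) and for 11 of 25 transcription factors of blood (7). It was smaller for 6 of 15 Hox genes (11) and larger for none of them. Over all genes tested these shares were 8.6% and 14.1% (edgeR).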
